A study of Mus musculus with 12 samples.

Results

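The integrated stress response genes examined here are 10 named genes, Atf4, Atf5, Ddit3, Cebpb, Ppp1r15a, Trib3, Chac1, Asns, Psat1 and Phgdh, each matched by its gene name to 1 row of a table of 29486 genes. Cellular mRNA abundance was measured by mRNAseq in splenic B cells of C57BL/6Babr mice, with 4 libraries in each of 3 conditions. B cells were activated with lipopolysaccharide (LPS, a mitogen for B cells, 10 µg/ml) for 48 h, received etoposide (20 µM, 4 h) after LPS, or received the ATM kinase inhibitor KU55933 (10 µM) after 47 h of LPS and 1 h before etoposide. Etoposide poisons topoisomerase II and leaves DNA double-strand breaks, which activate the kinase ATM. The last condition is also called that with the inhibitor, and all of its cells had etoposide too. All cells carried LPS, no cells received KU55933 without etoposide, and it is not stated in the labels if LPS-only cells were kept for another 4 h. Each condition used Illumina indexes that no other condition used, so index and condition cannot be told apart.

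In the integrated stress response, kinases that sense a shortage of amino acids or haem, unfolded protein in the endoplasmic reticulum or double-stranded RNA phosphorylate the initiation factor eIF2. General protein synthesis then slows, while a few mRNAs with upstream open reading frames, Atf4 first among them, are translated better. ATF4 is a basic leucine zipper (bZIP) transcription factor that raises genes for amino acid synthesis, import and tRNA charging, together with Ddit3 (CHOP) and Trib3. The product of Ppp1r15a, GADD34, brings a phosphatase to eIF2 and closes the loop. Activated B cells, which grow and secrete protein, use this pathway in their metabolism, and mRNA abundance as measured here does not show eIF2 phosphorylation or ATF4 protein.

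The columns of the deposited table that belong to a condition differ by a constant factor for every gene, to within 1.42e-14 on the log2 scale. Each gene therefore has 1 fitted level per condition, and the table holds no spread between replicates. Differences are given without a test of condition, and genes were called when their levels differed by at least 1.5-fold. The intervals are exact binomial 95% intervals on the summed fitted reads of a condition. They cover counting error only, and whether a difference is larger than the spread between cultures was not tested. The column totals ranged from 20400994 to 30575195 fitted reads, and all 10 genes were among the 15581 genes with at least 10 normalised counts in at least 4 libraries. All 9 B cell markers passed this filter, and Cd74, the highest of them, had between 64739.5 and 79800.2 counts. The lowest of the 9 had 4575 counts with LPS, 931 with etoposide and 886 with the inhibitor. The 7 T cell markers summed to between 15.8 and 16.8 counts, and the 5 neutrophil markers to between 2.48 and 15.3. The 3 natural killer cell markers summed to between 1.42 and 2.40, and the 5 red blood cell markers to between 109 and 215. Cdkn1a, a p53 target used to check the treatment, had 418 counts with LPS, 13323 with etoposide and 10736 with the inhibitor.

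The promoters of 4 of the 10 genes hold a short element through which bZIP factors of this family are known to act, and these stretches show which genes of the group carry one near the start of transcription. RefSeq promoter windows (GRCm38.p6, 250 bases before to 50 after the start, 300 in all) were found for all 10 genes, in 12 windows. They were searched on both strands for TGATGNAA, the core of the C/EBP-ATF response element, and for TGACGTCA, the cAMP response element, with the matches in capitals below. The first was found for 3 of the 10 genes and in 3.97% of 32851 promoters, and the second for 1 of the 10 genes and in 1.79% of promoters. Chac1 (chr2:119351038-119351067, plus strand) has its match on the opposite strand with its first base 193 bases before the start, Trib3 (chr2:152344028-152344057, minus strand) on the opposite strand at base 15 after the start, Asns (chr6:7693214-7693243, minus strand) on the same strand 23 bases before the start, and Ppp1r15a (chr7:45526262-45526291, minus strand) 12 bases before the start.
Chac1: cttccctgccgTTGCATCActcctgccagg
Trib3: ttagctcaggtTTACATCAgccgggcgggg
Asns: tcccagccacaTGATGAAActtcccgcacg
Ppp1r15a: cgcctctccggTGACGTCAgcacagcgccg
Distances are counted from the RefSeq starts, which differ from the GENCODE M21 gene coordinates given below for Asns, Trib3 and Chac1. By those coordinates the Asns match lies inside the gene, the Trib3 match before its start, and the Chac1 match still before its start but nearer to it. A match of letters is not a measured binding site. Chac1, Trib3 and Asns, which share the first element, were all lower with etoposide and all higher with the inhibitor. So were Atf4, Atf5, Psat1 and Phgdh, whose windows hold no match. Ddit3, also without a match, was close to its LPS level with etoposide. All 10 genes were higher with the inhibitor than with etoposide alone.

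Upstream open reading frames, the feature by which this pathway selects mRNAs for translation, were counted in the annotated 5′ leader of 1 main transcript per gene (GENCODE M21). An ATG before the start codon was present in 6 of the 10 genes and in 50.5% of 12279 expressed coding genes. The leader of Atf4 has 594 bases and 3 upstream ATGs, that of Ppp1r15a 283 bases and 3, that of Atf5 373 bases and 2, that of Ddit3 186 bases and 2, and that of Asns 169 bases and 2. An upstream reading frame that runs past the start codon in another frame, as in the known control of Atf4, was found for Atf4, Atf5 and Psat1, and in 16.6% of the genes. Trib3, Chac1, Phgdh and Cebpb have no ATG in the leader of the transcript used. Short reading frames that begin after the annotated start codon were not counted.

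**Figure D1:**
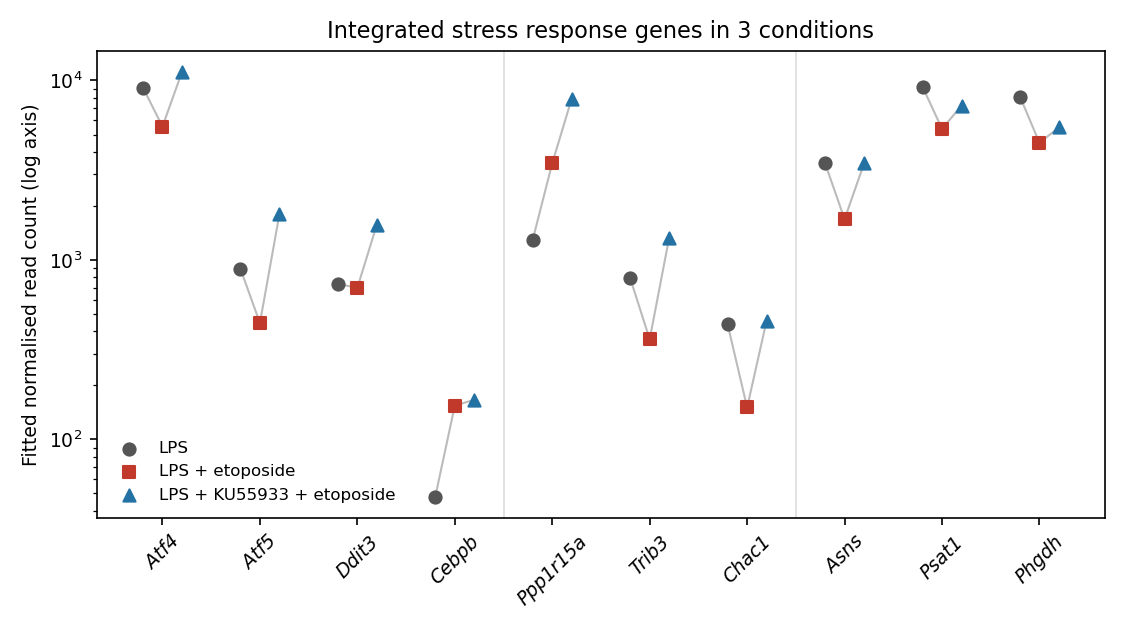
Fitted normalised read count (log axis) of each of the 10 genes with LPS, with LPS and etoposide, and with LPS, KU55933 and etoposide, 1 point per condition with no error bar because the table holds 1 fitted level per condition. Transcription factors are on the left, feedback and effector genes in the middle and enzymes on the right, and 7 of the 10 genes have their lowest point at least 1.5-fold below LPS with etoposide alone.

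With etoposide, 7 of the 10 genes were at least 1.5-fold lower than with LPS alone and 2 were at least 1.5-fold higher, against 17.9% lower and 21% higher among the 15581 genes. Of the 7 lower genes 4 (Atf5, Trib3, Chac1 and Asns) were also past 2-fold, against 6.61% of all genes. The median log2 difference of the 10 genes was −0.82, and that of all genes −0.05. The count of 7 depends on the scaling: it was 6 with library totals, where Atf4 (−0.55) was no longer past 1.5-fold, and 4 under quantile normalization and with the columns as deposited, where Atf4, Psat1 and Phgdh were not. The members that were lower are Atf4 and Atf5, the pseudokinase Trib3, the glutathione-degrading enzyme Chac1, and the 3 enzymes Asns, Psat1 and Phgdh. The members that were higher are Ppp1r15a and Cebpb. In bulk RNA, fewer cells that express a gene and less of its mRNA per cell cannot be told apart. The B cell markers moved in the same direction as the 7 lower genes: all 9 were lower with etoposide, 7 of them past 1.5-fold, and their summed level went from 246402 to 150342 counts. The 6 macrophage markers summed to 424 and 464 counts, with 3 of them higher and 1 lower past 1.5-fold. The part of these shifts in the result was not tested.

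With KU55933 under etoposide, all 10 genes were higher than with etoposide alone, 7 of them at least 1.5-fold, and none was lower past 1.5-fold, against 7.36% higher and 11.4% lower among all genes. The same 7 genes were past 2-fold, which 1.8% of all genes were, although Atf4 and Asns barely passed. The count past 2-fold was 6 with size factors over genes with at least 10 counts, without Atf4, and 5 with the columns as deposited, without Atf4 and Asns. The median log2 difference of the 10 genes was 1.10, and that of all genes −0.03. The B cell markers summed to 156781 counts here and the macrophage markers to 429. Their part in the result was not tested. Against LPS alone, KU55933 with etoposide gave 5 genes at least 1.5-fold higher (Atf5, Ddit3, Trib3, Ppp1r15a and Cebpb) and none lower, where 19.5% of all genes were higher and 16.9% lower. A level lower with etoposide than with LPS, at least 1.5-fold higher with the inhibitor than without it, and above LPS with the inhibitor was found for 5 of the 10 genes (Atf4, Atf5, Ddit3, Trib3 and Chac1) and for 3.79% of all genes. Its members turn on differences close to 0, those of Ddit3 from LPS with etoposide and of Chac1 and Asns from LPS with the inhibitor. Other scalings gave 5 or 6 genes, with Asns added under TMM factors and quantile normalization, and with Asns in place of Ddit3 in 3 others. The 3 comparisons share their libraries pairwise and are not independent of each other.

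**Figure D2:**
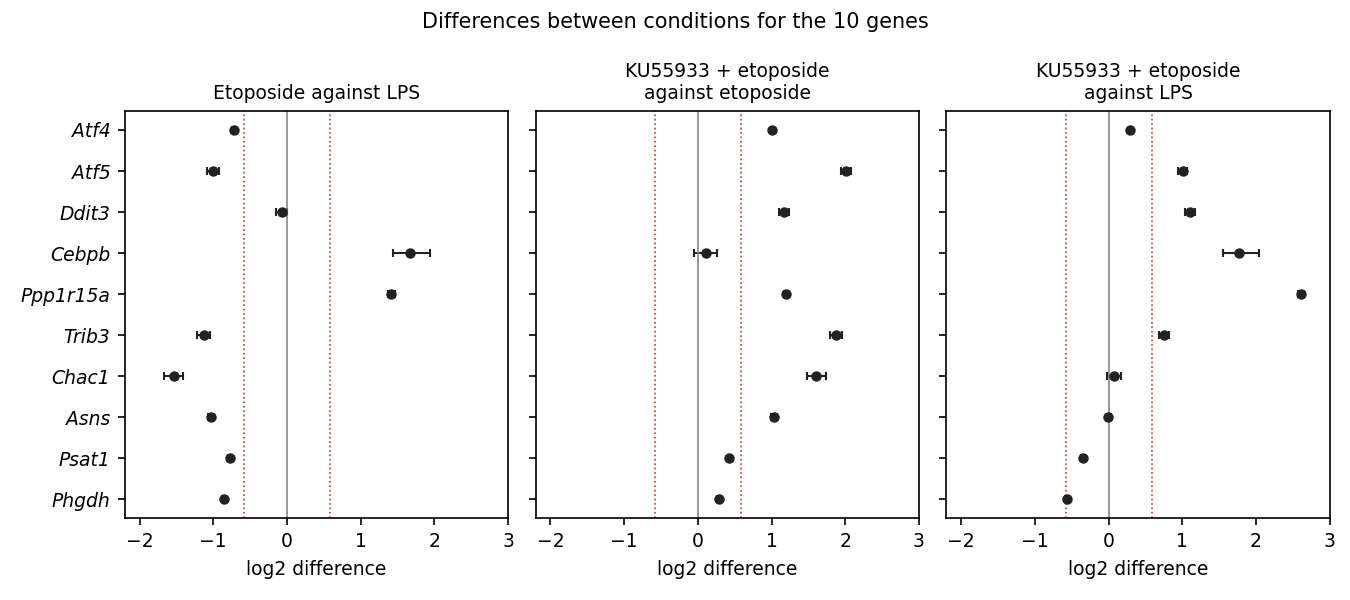
Log2 difference (horizontal axis, log2 of normalised count plus 1) of each gene in the 3 comparisons, with bars for exact 95% counting intervals and dotted lines at 1.5-fold. In the middle panel all 10 points lie above 0, from 0.11 for Cebpb to 2.01 for Atf5, while in the left panel 8 lie below 0.

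Atf4 (ENSMUSG00000042406, chromosome 15, 80255184 to 80257541, plus strand, GRCm38) encodes the central transcription factor of the response. Its deposited columns held 7339.8, 8143, 8471 and 7633 fitted reads with LPS, 5429.97, 6086, 7371 and 5899.97 with etoposide, and 10168, 11466, 12284 and 12486.5 with the inhibitor. The columns of the inhibitor lie above all others, while the third column with etoposide reaches the lowest with LPS, since the columns of a condition differ by library size only. Whether columns overlap between conditions, for this gene or any other, is therefore no measure of replicate agreement. Divided by the size factors, the levels were 9122 counts with LPS, 5536 with etoposide and 11155 with the inhibitor. Etoposide gave a log2 difference of −0.72 (counting interval −0.74 to −0.70), a level 39.3% lower that was under 1.5-fold in 3 other scalings. KU55933 under etoposide gave 1.01 (0.99 to 1.03) relative to etoposide, and 0.29 (0.27 to 0.31) relative to LPS.

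Atf5 (ENSMUSG00000038539, chromosome 7, 44812256 to 44816658, minus strand) encodes a bZIP factor under the same translational control and had the largest difference of the group with the inhibitor. The columns held 719, 797, 829 and 747 fitted reads with LPS, 436, 489, 592 and 474 with etoposide, and 1634, 1843, 1974 and 2006 with the inhibitor. The normalised level went from 893 counts with LPS to 445 with etoposide, 2.01-fold lower, and to 1793 with the inhibitor, 4.03-fold above etoposide alone. Among 15581 genes this difference, 2.01 on the log2 scale (1.94 to 2.08), ranked 24 from the top. Against LPS the level with the inhibitor was 2.01-fold higher.

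Ddit3 (ENSMUSG00000025408, chromosome 10, 127290774 to 127296288, plus strand) encodes CHOP, the factor linked to cell death when the response lasts. Its level hardly differed between LPS (734 counts) and etoposide (699 counts), with a log2 difference of −0.07 (−0.15 to 0.01) whose sign turned to as much as 0.30 under 3 other scalings. With KU55933 and etoposide it was 1573 counts, 1.17 (1.11 to 1.23) above etoposide and 1.10 (1.03 to 1.17) above LPS on the log2 scale. Ddit3 thus differed by more than 1.5-fold only where the inhibitor was present.

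Cebpb (ENSMUSG00000056501, chromosome 2, 167688915 to 167690418, plus strand), which encodes a bZIP partner of ATF4 and CHOP, was the least abundant gene of the group with LPS and followed another course. Its columns held 38.6, 42.9, 44.6 and 40.2 fitted reads with LPS, 151, 169.6, 205 and 164 with etoposide, and 151, 171, 183 and 186 with the inhibitor. The normalised level was 48.0 counts with LPS and 154 with etoposide, 3.21-fold higher (log2 difference 1.66, 1.44 to 1.94). With the inhibitor it was 166 counts, a log2 difference of 0.11 from etoposide (−0.05 to 0.26) that includes 0. Of the 100-base windows of its transcripts, 15.2% lie opposite to annotated exons of Tmem189. Libraries were stranded, and the strand setting of the counting is not given in the sources used here.

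Ppp1r15a (ENSMUSG00000040435, chromosome 7, 45522916 to 45526268, minus strand) was the member that differed most from LPS when the inhibitor was present. Its columns held 1044, 1159, 1205 and 1086 fitted reads with LPS, 3389, 3799, 4601 and 3682 with etoposide, and 7225, 8148, 8729 and 8873 with the inhibitor. The normalised levels were 1298, 3455 and 7927 counts. Etoposide gave 2.66-fold more than LPS, and the inhibitor a further 2.29-fold, which together made 6.11-fold (log2 difference 2.61, 2.57 to 2.66), ranked 164 from the top of 15581 genes. It was the 1 member with at least 1.5-fold more in each step.

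Trib3 (ENSMUSG00000032715, chromosome 2, 152337422 to 152344032, minus strand), an ATF4 target whose product restrains ATF4 and CHOP, had columns of 636, 706, 734 and 662 fitted reads with LPS, 354, 397, 481 and 385 with etoposide, and 1211, 1366, 1464 and 1488 with the inhibitor. The normalised level was 791 counts with LPS, 361 with etoposide (2.19-fold lower) and 1329 with KU55933 and etoposide (3.68-fold above etoposide, rank 30 from the top). Chac1 (ENSMUSG00000027313, chromosome 2, 119351229 to 119354381, plus strand), whose product degrades glutathione, had the largest difference downward of the group with etoposide, from 437 to 151 counts, 2.90-fold lower (log2 difference −1.53, −1.67 to −1.40). With the inhibitor it was back at 458 counts, 3.05-fold above etoposide, and its difference from LPS, 0.07 (−0.03 to 0.17), includes 0. Chac1 ranked 245 from the bottom with etoposide and 58 from the top with KU55933 under etoposide.

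The 3 enzymes of amino acid synthesis were lower with etoposide and parted with the inhibitor. Asns (ENSMUSG00000029752, chromosome 6, 7675169 to 7693254, minus strand), asparagine synthetase and a classic ATF4 target, had 3454 counts with LPS, 1686 with etoposide and 3449.55 with the inhibitor. Its log2 difference was −1.03 (−1.08 to −0.99) with etoposide and 1.03 (0.99 to 1.07) with the inhibitor under etoposide. The level with the inhibitor differed from that with LPS by −0.0021 (−0.04 to 0.03) on the log2 scale. The sign of this difference changed under 5 of 10 other settings, which are all those that rescale the columns. The rest change only the filter, fold or pseudocount and hardly move the value. Psat1 (ENSMUSG00000024640, chromosome 19, 15904678 to 15947337, minus strand) and Phgdh (ENSMUSG00000053398, chromosome 3, 98313170 to 98339990, minus strand) encode the transaminase and the dehydrogenase of serine synthesis. Psat1 went from 9229.96 counts with LPS to 5376 with etoposide and 7236 with the inhibitor, a log2 difference of −0.78 and then 0.43 (0.40 to 0.45). Phgdh went from 8127 to 4498 and 5477 counts, −0.85 and then 0.28 (0.26 to 0.31). Neither reached 1.5-fold with the inhibitor, and both were still below LPS, with log2 differences of −0.35 and −0.57, although quantile normalization put Psat1 at 0.09 above LPS. Of the 100-base windows of Phgdh transcripts, 28.1% occur identically in transcripts of other annotated genes, so that part of its reads may be divided or lost in counting.

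Per kilobase of exon, Atf4 was the most abundant of the 10 mRNAs in each condition, with 3869, 2348 and 4731 counts per kb. The length used is that of all annotated exons of a gene together, so the order depends on which exons are annotated. By counts alone Psat1 was highest with LPS, at 9229.96 against 9122 for Atf4. Phgdh was second with LPS at 3269, and any reads lost to its shared windows could change that order. Cebpb was last with LPS at 31.9 counts per kb, and last again with the inhibitor at 110.4. Ppp1r15a stood sixth in the order with LPS, where Atf5, Ppp1r15a and Ddit3 lay close together at 448, 442 and 429 counts per kb. It moved to rank 4 with etoposide at 1176 and to rank 2 with the inhibitor at 2699, past Phgdh, Psat1 and Asns. The level of Atf4 per kb was 8.75 times that of Ppp1r15a with LPS and 1.75 times with KU55933 and etoposide. Among 10871 genes with a mean of at least 100 counts, those whose log2 levels over the 3 conditions lay nearest to Atf4 were Pde7b, Ift172 and Cyb5r1, at Euclidean distances of 0.029, 0.030 and 0.035. The nearest other member was Asns, at rank 153 and a distance of 0.25. With 3 points per gene such a likeness is easily reached.

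**Figure D3:**
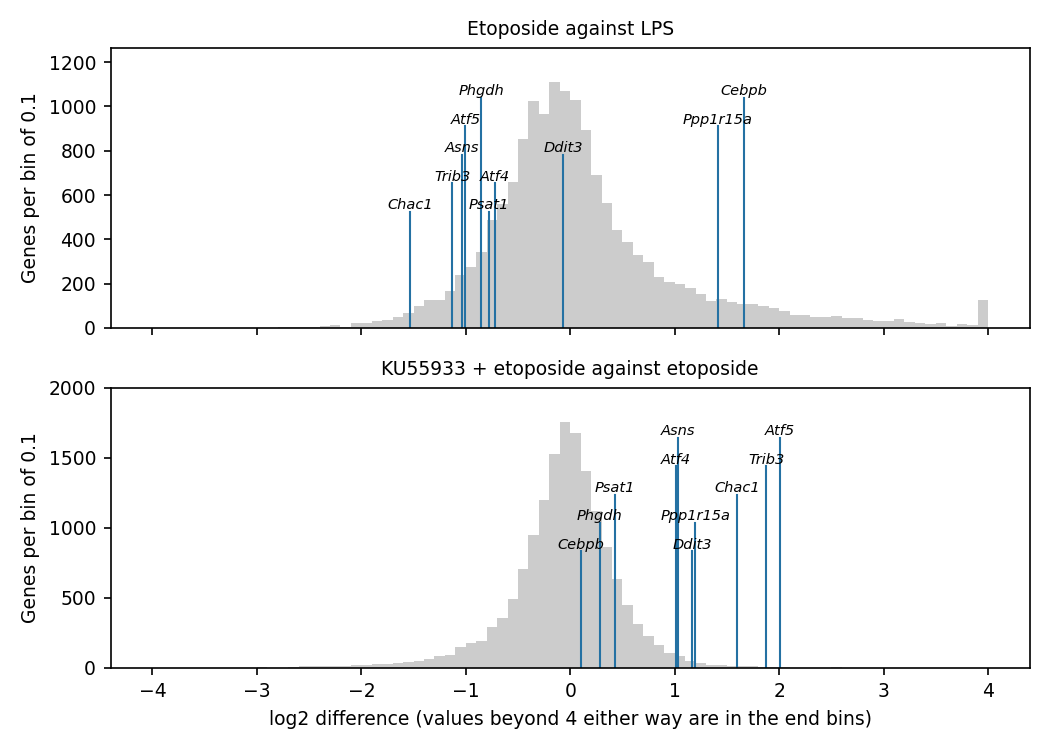
Histograms of the log2 difference of the 15581 genes with etoposide against LPS and with KU55933 and etoposide against etoposide (vertical axis, genes per bin), with the 10 genes marked by lines whose height carries no value. In the lower panel 7 of the 10 lines lie beyond 1 on the log2 scale, where 1.8% of all genes lie.

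Upstream of Atf4, mRNAs of the eIF2 kinases differed little. Eif2ak1 (HRI, the haem-regulated kinase) had 2066, 1923 and 1889.54 counts with LPS, etoposide and the inhibitor, in that order. Eif2ak2 (PKR, the kinase for double-stranded RNA) had 5019, 3979.7 and 4186, Eif2ak3 (PERK, the kinase of the endoplasmic reticulum) 2524, 2039.6 and 2699.9, and Eif2ak4 (GCN2, the sensor of uncharged tRNA) 1633, 1492 and 1277. None of these 4 kinases reached 1.5-fold in any of the 3 comparisons. Ppp1r15b, the constitutive counterpart of Ppp1r15a, had 6669.7, 5897 and 7585 counts, 1.29-fold more with the inhibitor than with etoposide alone, where Ppp1r15a had 2.29-fold more. Of the 9 kinases and regulators listed, 1 was higher with etoposide past 1.5-fold, Impact (0.92), which encodes an inhibitor of GCN2 activation, and 1 was lower, Dnajc3 (−0.77), which encodes an inhibitor of PERK and PKR. Among all genes 21% were higher and 17.9% lower. With KU55933 under etoposide none of the 9 was past 1.5-fold in either direction, and none of the 8 subunits of eIF2 and eIF2B was in either of these comparisons. With the inhibitor against LPS, 1 subunit was lower past 1.5-fold, Eif2s1 (−0.77), named here after its value was seen.

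Among 20 other known ATF4 and CHOP target genes, 19 passed the filter on counts. With etoposide 5 of them were higher and 7 lower past 1.5-fold, with a median of −0.32, where 21% of all genes were higher and 17.9% lower. The largest on the upper side were Tnfrsf10b (3.98), a death receptor, Cbs (3.21), cystathionine synthase, Sesn2 (2.75), a brake on mTORC1, and Bbc3 (2.08), the pro-apoptotic PUMA. Of these Tnfrsf10b, Sesn2 and Bbc3 are also known p53 targets. On the lower side were Gpt2 (−1.35), an alanine transaminase, Stc2 (−1.05), a secreted glycoprotein, Vldlr (−0.97), a lipoprotein receptor, and Herpud1 (−0.73), a component of protein disposal from the endoplasmic reticulum. With KU55933 under etoposide, 7 were higher and 1 lower, with a median of 0.41, where 7.36% of all genes were higher and 11.4% lower. Gpt2 was 1.76 higher on the log2 scale, Vldlr 1.49, Nupr1 1.14 and Jdp2 1.08, and Cbs was lower (−1.60), from 160.4 to 52.3 counts. Cbs had 16.4 counts with LPS, and Vldlr, Nupr1, Jdp2 and Stc2 had levels between 14.9 and 146 counts, so the differences of these 5 genes rest on few reads. Atf3, a bZIP factor of the same response, had 1590.5, 1920.2 and 3363 counts, 0.27 and then 0.81 on the log2 scale.

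Most genes that supply amino acids had a negative log2 difference with etoposide and a positive one with KU55933 under etoposide. Of 11 amino acid transporters, 4 were lower and none higher past 1.5-fold with etoposide (Slc1a4 −0.96, Slc7a1 −0.89, Slc7a5 −0.80 and Slc7a11 −0.61), against 17.9% and 21% of all genes, and with KU55933 under etoposide 5 were higher and none lower, against 7.36% and 11.4%. The furthest were Slc1a4 (1.57) for neutral amino acids, Slc6a9 (1.32) for glycine, Slc3a2 (0.89) and Slc7a5 (0.70), which form a heterodimer for large neutral amino acids. Slc7a11, the cystine transporter, went the other way with the inhibitor, at −0.51. Of 9 enzymes of serine, proline and one-carbon metabolism, 8 were lower with etoposide, against 17.9% of all genes (median −0.80, among them Aldh18a1 −1.26, Mthfd1l −1.13, Psph −1.12 and Aldh1l2 −0.97). With KU55933 under etoposide 6 of the 9 were higher, against 7.36% (median 0.65, among them Aldh18a1 0.98, Mthfd2 0.95, Aldh1l2 0.83 and Got1 0.77). Mthfd1l was 0.01 from its level with etoposide, and Shmt1 was lower still at −0.55.

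Of 20 cytosolic aminoacyl-tRNA synthetases, which charge tRNAs, 15 were lower with etoposide (median −0.72), against 17.9% of all genes, and 3 were higher with KU55933 under etoposide (median 0.26), against 7.36%. With the inhibitor against LPS all 20 were still below 0 (median −0.42), 4 of them past 1.5-fold, where 16.9% of all genes were. Those furthest down with etoposide were Farsb (−1.12), Tars (−0.99), Yars (−0.99) and Cars (−0.99), and those past 1.5-fold with the inhibitor were Cars (0.86), Aars (0.70) and Sars (0.65). Of 14 genes of the other branches of the endoplasmic reticulum response, 8 were lower with etoposide (median −0.61), against 17.9% of all genes. Among the 8 were Atf6 (−1.29), Pdia4 (−1.14), Sdf2l1 (−1.04) and Sel1l (−0.79). None of the 14 was past 1.5-fold with KU55933 under etoposide (median 0.07), where 7 of the 10 genes of the integrated stress response were. Of 11 other bZIP genes, 9 passed the filter. Fos (3.81), Jun (1.66) and Maff (1.01) were higher with etoposide, and Cebpd (−1.19), Batf (−1.09) and Batf3 (−0.96) were lower. Among all genes 21% were higher and 17.9% lower. Cebpd alone was past 1.5-fold with the inhibitor under etoposide (1.05, from 28.7 to 60.4 counts). Levels with LPS and with etoposide were low for Maff (56.3 and 114 counts), Batf3 (25.2 and 12.5) and Cebpd (66.9 and 28.7). These differences between lists were not tested.

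**Figure D4:**
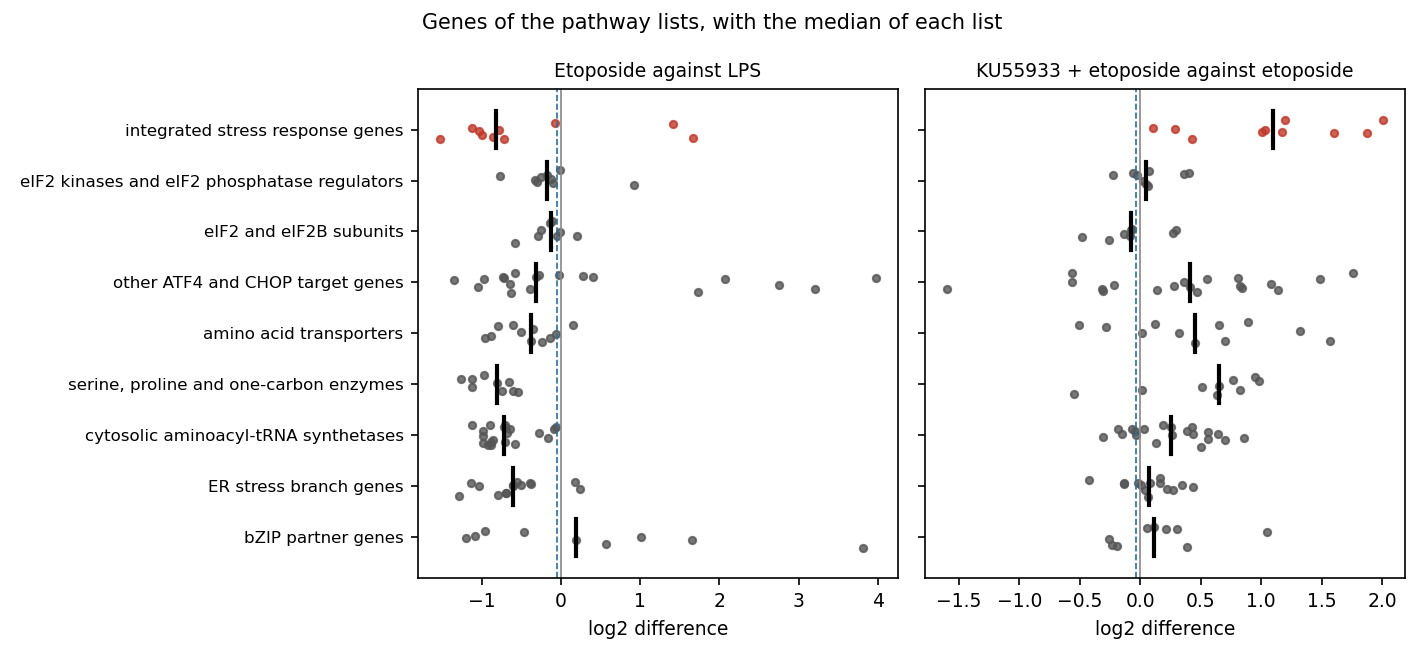
Log2 difference (horizontal axis) of every gene past the filter in 9 pathway lists, 1 point per gene with vertical jitter, a black bar at the median of each list and a dashed line at the median of all genes. With KU55933 under etoposide the integrated stress response genes have a median of 1.10, the serine, proline and one-carbon enzymes 0.65, the amino acid transporters 0.45 and the genes of the endoplasmic reticulum 0.07.

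The scaling used here gave Atf4, Psat1 and Phgdh their largest or near largest differences downward. Over 10 other settings, Atf4 with etoposide lay between −0.72 and −0.35, Psat1 between −0.78 and −0.41 and Phgdh between −0.85 and −0.48. With the inhibitor against LPS, Atf4 lay between 0.29 and 0.71 and Psat1 between −0.35 and 0.09. With KU55933 under etoposide, Atf4 lay between 0.90 and 1.06, Atf5 between 1.90 and 2.07, Trib3 between 1.77 and 1.92 and Ppp1r15a between 1.09 and 1.335. The sign of all 10 genes was positive under every setting, but Cebpb lay between 0.0004 and 0.15, so its sign is not settled. Settings that change only the filter or the fold cannot move these differences.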

How the data were processed

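Libraries from polyA RNA (TruSeq Stranded mRNA kit, single-end reads of 100 bases) were trimmed with Trim Galore and cutadapt 1.2.1, mapped to GRCm38 with TopHat2 2.0.12, counted on Ensembl 78 genes with HTSeq and fitted with DESeq2 1.6.3 by the authors. The deposited signal in each of the 12 columns is the model's mean for that condition, multiplied by its library's size factor, and not a raw count. The 3 deposited comparisons hold the authors' own fold changes, standard errors, Wald statistics and p-values and were not used. A limma test was planned for values that vary within a condition. It could not be run on fitted means, so no p-value is given.

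Size factors were computed as medians of ratios over 19515 genes with at least 1 fitted read in every column, and ranged from 0.805 to 1.33. This minimum of 1 was set after results with a minimum of 10 had been seen, to keep every gene with a read in all columns, and the first setting is given as an alternative. The promoter, leader and shared-window searches and the grouping by role were also added with results known. Log2 differences used a pseudocount of 1. Genes were kept with at least 10 counts in at least 4 libraries and called past 1.5-fold. Named are the 10 genes, in each pathway list the 4 genes furthest past 1.5-fold each way with etoposide and with KU55933 under etoposide, the eIF2 kinases, Ppp1r15b, Atf3, Cdkn1a and the 3 genes nearest to Atf4. Cd74, Shmt1, and Stc2, Mthfd1l and Slc7a11 with the inhibitor were singled out after their values were seen. The genes and lists were chosen with earlier results of these data known. Markers of T cells, natural killer cells and neutrophils were listed too, and 1 of their 15 matched genes passed the filter. Exon lengths and coordinates are from GENCODE M21 on GRCm38. Shared 100-base windows compare annotated transcripts. The code for differences and calls was tested on simulated data. Alternatives were pseudocounts of 0.5 and 5, no filter, a minimum of 50 counts, TMM factors, quantile normalization, library totals, columns as deposited, 2-fold, leaving out each library and size factors over genes with at least 10 counts, the setting tried first. Software was Python 3.11.15 with pandas 2.3.3, numpy 2.4.6, matplotlib 3.10.9 and scipy 1.17.1.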

Additional observations from a re-analysis of the deposited data

How the results depend on the processing

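The number of the 10 genes lower with etoposide was 7, and 4 under quantile normalization, with the columns as deposited and at 2-fold, where Atf4, Psat1 and Phgdh no longer passed. At 2-fold the numbers of all genes past the fold were 3166 with etoposide, 983 with KU55933 under etoposide and 2641 with both against LPS, in place of 6060, 2931 and 5671. The share of higher among the genes past 1.5-fold with etoposide was 54.0%, and 67.7% with library totals, 81.7% with the columns as deposited, 46.1% under quantile normalization and 46.5% with at least 50 counts. For KU55933 and etoposide against LPS it was 53.6%, and under the same settings, in that order, 71.8%, 76.5%, 50.4% and 47.1%. For the inhibitor under etoposide it was 39.1%, and under those settings 44.2%, 25.6%, 48.3% and 43.6%. Size factors over genes with at least 10 counts, tried before the minimum of 1 was set, gave the same 7, with Atf4 at −0.63, Ddit3 at 0.02 and a share of higher of 61.7% with etoposide, and Asns at 0.07 with KU55933 and etoposide against LPS. Library totals put Atf4 at −0.55 with etoposide, under 1.5-fold, and the median of all genes at 0.11 with etoposide, against −0.05. No difference past 1.5-fold changed sign. Leaving out single libraries moved nothing because the rescaled columns of a condition are identical, and this says nothing about stability. No paired analysis was possible because the columns hold fitted means with no deviation of their own. Counting intervals are narrow for all 10 genes except Cebpb, with 166 summed fitted reads with LPS, and the missing spread between replicates is the main limit.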
